A study of Rattus norvegicus with 12 samples.

Results

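Genes known for the products of other organs were followed through uterine RNA-seq of ovariectomized rats. They were 9 of the 16493 genes in the files, namely Scgb1a1, Kap, Cuzd1, Lipf, Gp2, Csn3, Amtn, Clca1 and Padi1. They were picked by name, as secreted or surface products typical of lung, kidney, stomach, pancreas, gut, mammary gland or tooth that were high with estradiol (E2) in these same libraries. The E2 differences given here are therefore a description, with no test. Padi1 goes against this grouping, since its product is an enzyme of the cell interior and is best known from skin. All 9 had a single annotated transcript, and all 9 passed the filter on low values. It asked that 3 or more of the 12 libraries reach 1 FPKM, a unit that scales reads to transcript length and to the mapped reads of the library. For 6 of them (Lipf, Gp2, Csn3, Amtn, Clca1 and Padi1) no untreated library reached that level, so they passed through the E2 libraries alone.

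All rats were Sprague-Dawley females, ovariectomized on postnatal day 50 to remove their own estrogens, and uteri were collected on postnatal day 65. SPI-E2 rats ate soy protein isolate and received 5 μg/kg/d of 17β-estradiol under the skin from an osmotic pump, CAS-E2 rats ate casein with the same E2, SPI rats ate soy protein isolate with the polyethylene glycol vehicle alone, and CAS rats ate casein with vehicle alone. The diets ran from postnatal day 30 by the methods, but other passages of the study give a shorter feeding and an age 1 day younger, so the length of feeding is uncertain. Each group had 3 libraries, each from a pool of RNA from 2 uteri, so 6 uteri stand behind a group and errors are those between pools. Whole uteri were used, in which fewer cells of a type and less RNA per cell cannot be told apart. Libraries of 1 group were sequenced together, so lane and group cannot be told apart.

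Depth was 6353210 to 9862180 mapped reads per library, recovered from the files' FPKM and coverage. The 7 uterine identity genes found were expressed in every group, among them Esr1, the estrogen receptor, at a mean of 23.99, 17.9, 28.6 and 39.9 FPKM in SPI-E2, CAS-E2, SPI and CAS. Within the E2 groups, SPI-E2 1 stood apart. On the differences of 10270 genes between treated and untreated uteri in the other diet, its own differences had a slope of 0.379, against 0.883 and 0.923 for SPI-E2 2 and SPI-E2 3 and 0.859 to 1.06 for the CAS-E2 libraries. The E2 differences in soy-fed rats are given with and without it.

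The lining of the uterus is an epithelium whose luminal and glandular cells secrete proteins into the cavity, and estrogens act on it through receptors in the nucleus that bind DNA as paired molecules. Many secreted proteins were named for the organ in which they were first found or are most abundant. Uteroglobin, the product of Scgb1a1, carries the name of the uterus although it is best known from the club cells of the lung. The products described here range from enzymes and antimicrobial or mucus components to structural proteins of milk and enamel.

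The stretch around the start of each gene is shown for the 4 members in which a searched motif was found. RefSeq promoters (GRCr8, 250 bases before to 50 after the start) matched 8 of the 9 members by symbol. Capitals mark the motif, and each line runs 5′ to 3′ on the strand of the gene, which is the minus strand in all 4. They lie at chr1:215409637-215409936 (Scgb1a1), chr1:183243905-183244204 (Gp2), chr14:20439781-20440080 (Csn3) and chr2:236624665-236624964 (Clca1).
Scgb1a1: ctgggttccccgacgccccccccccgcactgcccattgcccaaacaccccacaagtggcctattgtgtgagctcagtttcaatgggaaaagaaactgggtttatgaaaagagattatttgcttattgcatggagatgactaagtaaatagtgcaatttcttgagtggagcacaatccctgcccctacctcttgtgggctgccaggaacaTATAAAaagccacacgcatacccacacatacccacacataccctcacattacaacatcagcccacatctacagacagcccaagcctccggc
Gp2: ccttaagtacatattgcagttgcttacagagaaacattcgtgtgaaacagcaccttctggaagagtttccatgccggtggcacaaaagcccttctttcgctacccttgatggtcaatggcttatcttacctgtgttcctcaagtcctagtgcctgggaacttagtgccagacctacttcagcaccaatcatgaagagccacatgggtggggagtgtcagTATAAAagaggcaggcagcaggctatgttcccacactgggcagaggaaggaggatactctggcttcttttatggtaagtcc
Csn3: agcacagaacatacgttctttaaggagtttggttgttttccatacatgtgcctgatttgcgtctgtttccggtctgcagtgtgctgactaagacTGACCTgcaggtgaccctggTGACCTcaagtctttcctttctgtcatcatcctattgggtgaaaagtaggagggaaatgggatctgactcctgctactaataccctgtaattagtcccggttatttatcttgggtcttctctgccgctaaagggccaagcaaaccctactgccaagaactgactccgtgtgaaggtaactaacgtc
Clca1: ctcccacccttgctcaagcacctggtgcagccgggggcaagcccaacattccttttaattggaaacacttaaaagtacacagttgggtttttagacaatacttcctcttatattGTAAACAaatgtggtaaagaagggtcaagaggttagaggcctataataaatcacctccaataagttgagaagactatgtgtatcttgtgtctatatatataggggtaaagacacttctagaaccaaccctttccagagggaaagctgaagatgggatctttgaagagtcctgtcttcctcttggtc

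The full palindrome bound by estrogen receptors, GGTCANNNTGACC, was in 0 of the 8 promoters, against 0.0269% of all 33469 promoters in the table. One arm of it, AGGTCA, searched on both strands, was in 1 of 8, against 16.2% of all. Csn3 held it as TGACCT on the other strand at 156 and 136 bases before the start (offsets -156 and -136). The forkhead motif TGTTTAC was in 1 of 8, against 3.78% of all, and lay in Clca1 as GTAAACA at -136. The TATA box TATAAA was in 2 of 8, against 14.2% of all, at -41 in Scgb1a1 and -31 in Gp2. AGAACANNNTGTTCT, the palindrome bound by androgen and progesterone receptors, was in 0 of 8 and in 0.0149% of all. These matches are of letters only, within 300 bases, and say nothing of binding.

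The 9 genes fell into levels that differed widely in E2-treated uteri. Kap, Scgb1a1, Cuzd1 and Lipf were abundant, Clca1 was intermediate, and Padi1, Gp2, Csn3 and Amtn stayed at a mean FPKM under 10 in both E2 groups. For all 9, every SPI-E2 library was above every SPI library and every CAS-E2 library above every CAS library. Such a separation held for 30.1% of the 10279 genes kept in SPI-E2 against SPI and for 23.9% in CAS-E2 against CAS. Since the members were chosen on these contrasts, nothing is read from their count.

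**Figure D1:**
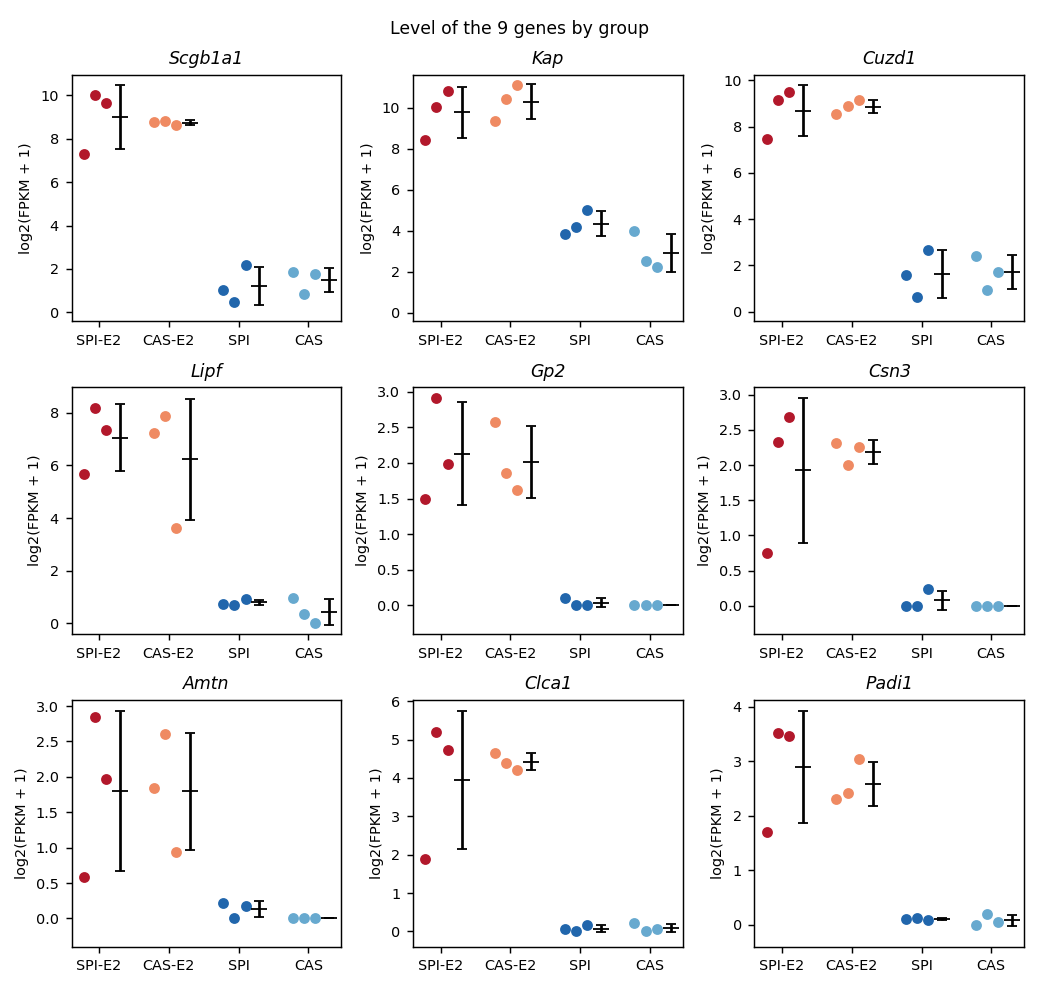
Level of each of the 9 genes, as log2(FPKM + 1), in the 3 libraries (points) of SPI-E2, CAS-E2, SPI and CAS, with the group mean and SD (bars). In every panel all 6 points of E2-treated rats lie above all 6 of untreated rats, and in most the lowest of the E2 points is SPI-E2 1.

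Scgb1a1 encodes uteroglobin, a small secreted protein that binds lipids and steroids. The gene (NM_013051) lies on the minus strand of rn4 chromosome 1, 211758103 to 211761651, in 3 exons. Libraries 1, 2 and 3 held 159, 1029 and 811 FPKM in SPI-E2, against 1.01, 0.403 and 3.57 in the libraries of SPI. They held 436, 457 and 394 FPKM in CAS-E2, against 2.58, 0.778 and 2.42 FPKM in CAS. The untreated values rested on 1 to 9 reads each, as the Cufflinks intervals imply, whereas 303 to 2607 reads stood behind each E2 value. The ratio of mean FPKM was 401 in SPI-E2 over SPI and 223 in CAS-E2 over CAS. CAS-E2 libraries were close to each other, with a coefficient of variation of 7.48%, against 67.9% among SPI-E2 libraries, where library 1 was far below the other two.

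Kap encodes the kidney androgen-regulated protein, known in rodents from the proximal tubule. It (NM_052802) lies on the minus strand of chromosome 4, 170652195 to 170655239, in 4 exons. Its FPKM was 342, 1058 and 1803 in SPI-E2, against 13.1, 17.1 and 31.1 in SPI. In CAS-E2 it was 659.9, 1348 and 2176 FPKM, against 14.7, 4.84 and 3.76 FPKM in CAS. Kap was the most abundant member in both E2 groups, and in CAS-E2 3 and SPI-E2 3 it ranked 2 among all genes of the library, with 1.20% of all FPKM in CAS-E2 3. It was also the member with the highest untreated level, at 12 to 151 implied reads per library. The ratio of means was 52.2 in SPI-E2 over SPI and 179 in CAS-E2 over CAS.

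Cuzd1, a protein with CUB and zona pellucida domains that is known from the zymogen granules of the pancreas, lies on the minus strand of chromosome 1, 190887527 to 190900654 (NM_054005, 9 exons). Libraries 1, 2 and 3 held 173, 568 and 717 FPKM in SPI-E2, against 1.98, 0.561 and 5.42 in SPI. Those of CAS-E2 held 375, 474 and 561 FPKM, against 4.38, 0.936 and 2.29 FPKM in CAS. The groups did not overlap, and the ratio of means was 183 in SPI-E2 over SPI and 185 in CAS-E2 over CAS. With 2640 to 11017 implied reads per E2 library, Cuzd1 had the most reads of the 9 in both E2 groups.

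Gp2 encodes the main glycoprotein of the zymogen granule membrane in the exocrine pancreas, also with a zona pellucida domain. It (NM_134418) lies on the minus strand of chromosome 1, 177709931 to 177725490, in 11 exons. Its FPKM was 1.81, 6.53 and 2.96 in SPI-E2, against 0.0767, 0 and 0 in SPI. It was 4.97, 2.61 and 2.06 FPKM in CAS-E2 and was listed at 0 in all 3 CAS libraries, where 3 reads would have given 0.180 to 0.279 FPKM. The E2 values rested on 23 to 109 implied reads, and no fold is given against values of 0 or 1 read.

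Lipf, the gastric lipase that starts fat digestion, is the only member on the plus strand (chromosome 1, 237838238 to 237856585, NM_017341, 10 exons). Libraries 1, 2 and 3 held 50.1, 287 and 161 FPKM in SPI-E2, against 0.682, 0.635 and 0.893 in SPI. They held 148, 234 and 11.2 FPKM in CAS-E2, against 0.929, 0.263 and 0 FPKM in CAS. The ratio of means was 225 in SPI-E2 over SPI and 331 in CAS-E2 over CAS. CAS-E2 3 fell far below the other CAS-E2 libraries, the highest of which was 20.9 times its level, although 87 reads were implied even there. Without it, the difference between CAS-E2 and CAS was 7.12 in log2(FPKM + 1), against 5.81 with it (SE 0.90).

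Clca1, a secreted metalloprotease of intestinal goblet cells that belongs to the mucus, lies on the minus strand of chromosome 2, 243057135 to 243084146 (NM_001107449, 14 exons). Its FPKM was 2.69, 35.8 and 25.7 in SPI-E2, against 0.0387, 0 and 0.121 in SPI. It was 24.2, 20.02 and 17.6 FPKM in CAS-E2, against 0.158, 0 and 0.0462 FPKM in CAS. Untreated libraries held 0 to 4 implied reads. The SPI-E2 libraries differed up to 13.3 times among themselves, with library 1 low, while the CAS-E2 libraries stayed within 1.38 times. The ratio of means was 401 in SPI-E2 over SPI and 303 in CAS-E2 over CAS, both on these few untreated reads.

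Csn3 encodes kappa-casein, the milk protein that keeps casein micelles in suspension, and Amtn encodes amelotin, which ameloblasts secrete onto maturing enamel. Both lie on the minus strand of chromosome 14, Csn3 at 21674805 to 21681360 (NM_031562, 5 exons) and Amtn at 21231281 to 21243840 (NM_001044296, 9 exons), with 430965 bases between them. Csn3 held 0.690, 4.03 and 5.45 FPKM in SPI-E2, against 0, 0 and 0.176 in SPI. In CAS-E2 Csn3 held 3.99, 2.99 and 3.77 FPKM and in CAS it was listed at 0 in all 3 libraries. Its E2 values came from 3 to 23 implied reads, so each is known only roughly, and 3 reads would have given 0.519 to 0.805 FPKM in CAS.

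Amtn had 0.506, 6.17 and 2.91 FPKM in SPI-E2, against 0.165, 0 and 0.129 in SPI. In CAS-E2 Amtn had 2.58, 5.06 and 0.922 FPKM and in CAS it was listed at 0 in all 3 libraries, with 0.380 to 0.591 FPKM as the worth of 3 reads. The lowest E2 values, in SPI-E2 1 and CAS-E2 3, rested on 3 and 5 implied reads. The groups did not overlap, but SPI-E2 1 lay within the range that 3 reads would give in CAS. The 5 genes between Amtn and Csn3 were not tested, and 0 of them reached an FPKM of 1 in any library.

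Padi1 encodes a peptidylarginine deiminase, an enzyme that turns arginine residues of proteins into citrulline. It (NM_019332) lies on the minus strand of chromosome 5, 159671725 to 159704188, in 16 exons. Libraries 1, 2 and 3 held 2.25, 10.4 and 10.03 FPKM in SPI-E2, against 0.0744, 0.0891 and 0.0584 in SPI. They held 3.93, 4.32 and 7.21 FPKM in CAS-E2, against 0, 0.143 and 0.0445 FPKM in CAS. SPI-E2 1 was again the lowest of the treated libraries, and untreated libraries held 0 to 5 implied reads. The ratio of means was 102 in SPI-E2 over SPI and 82.3 in CAS-E2 over CAS.

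On the scale of the fit, which understates changes of low genes, the difference in log2(FPKM + 1) between SPI-E2 and SPI was 7.77 for Scgb1a1, 7.06 for Cuzd1, 6.27 for Lipf and 5.43 for Kap. Between CAS-E2 and CAS it was 7.27 for Scgb1a1, 7.16 for Cuzd1, 5.81 for Lipf and 7.36 for Kap. For the lower members it was 2.09 for Gp2, 1.85 for Csn3, 1.67 for Amtn, 3.87 for Clca1 and 2.79 for Padi1 in SPI-E2 against SPI, and lay between 1.79 (Amtn) and 4.33 (Clca1) in CAS-E2 against CAS. Of the 108 values of the 9 genes, 18 were listed at 0, all of them among the 54 of untreated rats. A listed 0 may be a failed estimate rather than an absence: of 2214 genes that reached 10 FPKM in 9 or more libraries, 2 were at 0 in some library.

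The ratios of means moved with single libraries. In SPI-E2 over SPI, leaving out SPI 3 gave 943 for Scgb1a1, 382 for Cuzd1 and 1106 for Clca1, leaving out SPI-E2 2 gave 143 for Lipf and 266 for Clca1, and leaving out SPI-E2 3 gave 34.2 for Kap. Without SPI-E2 1 they were 554 for Scgb1a1, 70.0 for Kap, 242 for Cuzd1, 304 for Lipf, 576 for Clca1 and 138 for Padi1. In CAS-E2 over CAS, leaving out CAS 1 gave 324 for Kap, 291 for Cuzd1, 999.6 for Lipf, 892 for Clca1 and 54.9 for Padi1, leaving out CAS 2 gave 232 for Padi1, and leaving out CAS-E2 2 gave 201 for Lipf. Left out singly, the other libraries, SPI-E2 1 included, moved these ratios by no more than 1.5 times.

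The order of the 6 E2 libraries differed from member to member, but the lowest and the highest place recurred. SPI-E2 1 was the lowest of the 6 for 8 members, and the second lowest for Lipf, where CAS-E2 3 was lower. SPI-E2 2 was the highest for 6 members, SPI-E2 3 for Cuzd1 and Csn3, and CAS-E2 3 for Kap. The low place of SPI-E2 1 was not particular to the 9: among the 581 other genes higher in both E2 comparisons, it was the lowest SPI-E2 library for 571. Averaged over the 9, the difference from the untreated mean of the same diet was 2.99, 5.09 and 4.86 in log2(FPKM + 1) for SPI-E2 1, 2 and 3, and 4.55, 4.73 and 4.20 for CAS-E2 1, 2 and 3. Without SPI-E2 1, the difference between SPI-E2 and SPI was larger for all 9: 8.61 for Scgb1a1, 6.10 for Kap, 7.68 for Cuzd1, 6.96 for Lipf, 2.42 for Gp2, 2.43 for Csn3, 2.27 for Amtn, 4.90 for Clca1 and 3.38 for Padi1.

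**Figure D2:**
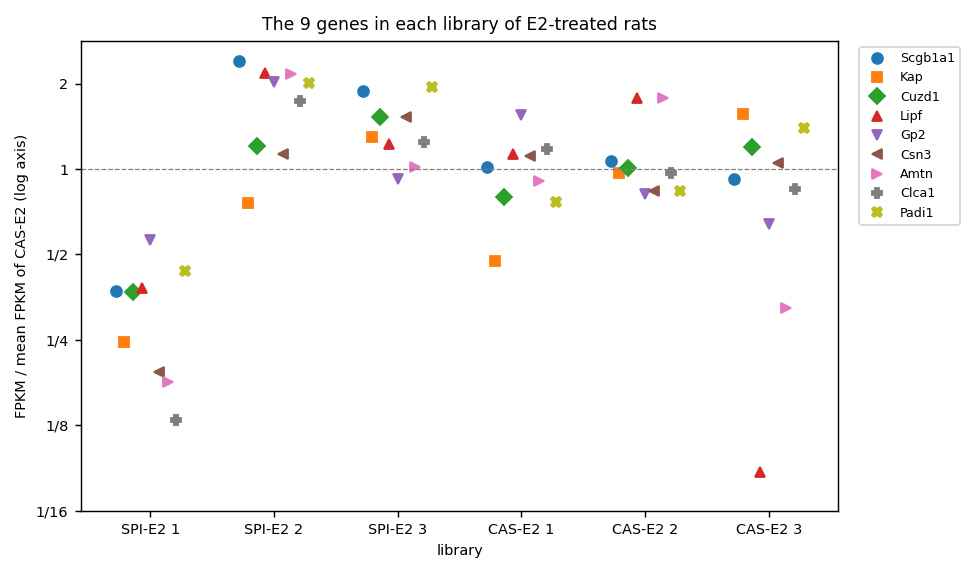
FPKM of each of the 9 genes in the 6 libraries of E2-treated rats, divided by the mean of the 3 CAS-E2 libraries (log axis, dashed line at 1). All 9 genes lie below the line in SPI-E2 1, and Lipf, at 11.2 FPKM, lies far below it in CAS-E2 3.

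Markers of several cell types moved with E2. The summed FPKM of 11 epithelial genes was 563 to 2010 in SPI-E2, against 137 to 175 in SPI, and 958 to 1656 in CAS-E2, against 220 to 248 in CAS. It was lowest of the 6 E2 libraries in SPI-E2 1. Of 10 tested, 9 were higher in SPI-E2 against SPI, where 8.39% of all genes tested were. In CAS-E2 against CAS 7 were higher, where 7.99% of all were. Epcam and Krt18 were higher in both diets. Cldn4 (-0.45), Esrp1 and Grhl2 did not pass in CAS-E2 against CAS. Epcam, an adhesion protein of epithelial cells, had a mean of 151 in SPI-E2 against 39.5 in SPI, and of 126 in CAS-E2 against 51.4 in CAS. The members were chosen as high with E2, so the size of their ratios of means cannot be weighed against that of these markers.

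The sum of 4 gland genes was 26.4 to 39.5 FPKM in SPI-E2, against 16.04 to 20.8 in SPI, and 22.6 to 29.2 in CAS-E2, against 26.6 to 34.9 in CAS. Foxa2, a transcription factor of the gland epithelium, had a mean of 3.51 in SPI-E2 against 4.16 in SPI, and of 2.02 in CAS-E2 against 9.20 in CAS, where it was lower past the test (difference -1.76 in log2(FPKM + 1), adjusted p = 4.5e-05, limma). Lif, a cytokine of the same list chosen here after its values were seen, rose past the test, with a mean of 10.3 in SPI-E2 against 0.898 in SPI, and of 11.8 in CAS-E2 against 0.747 in CAS. The mean sum of 8 stromal genes was 476 FPKM (296 to 724) in SPI-E2 against 874 (788 to 929) in SPI. In casein-fed rats it was 588 (372 to 831) in CAS-E2 against 859 (763 to 956) in CAS, and these ranges overlapped. The mean sum of 5 endothelial genes was 46.0 in SPI-E2 against 70.6 in SPI, and 41.5 in CAS-E2 against 81.3 in CAS. That of 7 leukocyte genes was 49.0 in SPI-E2 against 27.7 in SPI, and 76.2 in CAS-E2 against 22.9 in CAS. That of 7 smooth muscle genes was 3352 in SPI-E2 against 2519 in SPI, and 3563 in CAS-E2 against 2955 in CAS. Of these 7, 0 passed the test in either diet. The part of cell composition in the members' differences was not tested.

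Diet was not used to choose the members, so it could be tested, although these contrasts share libraries with those that were used. A gene was called at a Benjamini-Hochberg adjusted p under 0.05 from limma together with a 2-fold change on the log2(FPKM + 1) scale. In SPI against CAS a call was possible only for Scgb1a1, Kap and Cuzd1, since no untreated library reached 1 FPKM for the other 6 and a 2-fold change on this scale was then out of reach. Of these 3, 0 were called, where 0.0195% of all genes tested were. In SPI-E2 against CAS-E2 0 of 9 were called, where 0.00973% of all were, and in the interaction of E2 with diet 0 of 9, where 0.0% of all were. At an unadjusted p under 0.05 only Kap passed, in SPI against CAS. These counts leave little to compare, since the background is close to none.

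Kap differed most between untreated diets, with all but 1 SPI library above all CAS libraries, at 13.1 to 31.1 FPKM in SPI against 3.76 to 14.7 FPKM in CAS. The difference was 1.41 in log2(FPKM + 1) (SE 0.64, 95% interval 0.02 to 2.80), with an adjusted p of 0.38 from limma. With weights for each library it was 1.68 with an adjusted p of 0.025 from limma and passed both cutoffs. Those weights raised the calls over all 10279 genes to 28 higher and 31 lower, from 0 and 2. Under the other alternatives Kap was not called. Liver markers summed to 1543, 12.4 and 40.1 FPKM in SPI 1, 2 and 3, against 28.6 to 283 in CAS, and fat markers to 589, 357 and 98.7 FPKM, against 62.2 to 132 in CAS. Whether these sums bear on the difference of Kap was not tested. Under E2, Kap was -0.52 in SPI-E2 against CAS-E2 (95% interval -1.91 to 0.87), and its interaction was -1.93 (95% interval -3.90 to 0.03), with an adjusted p of 0.34 from limma.

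In SPI-E2 against CAS-E2 the differences of the other 8 members ran from -0.48 (Clca1, 95% interval -1.83 to 0.87) to 0.82 (Lipf, 95% interval -1.15 to 2.80), with limma adjusted p of 0.96 to 1.0. The intervals of the low members depend on the pseudocount: the SE of Gp2 was 0.32 with 1 and 0.55 with 0.1, and that of Csn3 0.37 and 0.69. In SPI against CAS the difference was -0.25 for Scgb1a1 (95% interval -1.59 to 1.09) and -0.07 for Cuzd1 (95% interval -1.33 to 1.20). The direction of the SPI-E2 against CAS-E2 difference turned with SPI-E2 1 for several genes: without it, it was 0.55 for Clca1, 0.46 for Cuzd1, 0.32 for Csn3 and 0.15 for Kap, all negative with it. These data therefore set no tight limit on a diet difference.

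**Figure D3:**
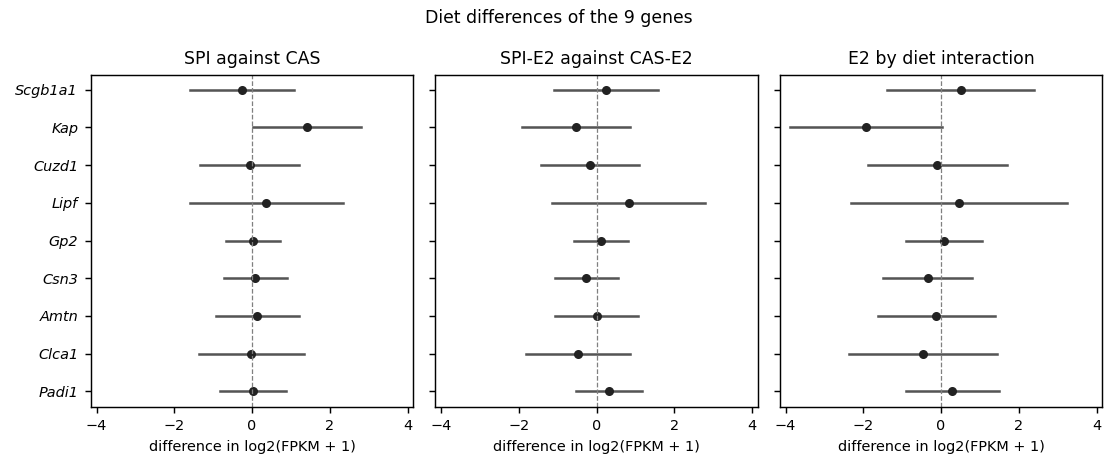
Difference in log2(FPKM + 1) for each of the 9 genes in SPI against CAS, SPI-E2 against CAS-E2 and the interaction of E2 with diet (points, with 95% intervals from the limma fit as lines). Every interval includes 0 except that of Kap in SPI against CAS, which begins at 0.02.

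Other genes typical of the same organs were mostly listed under 1 FPKM, with or without E2. Of 104 genes in 8 organ lists, 94 were found, 25 were at 0 in all 12 libraries and 69, these included, stayed under an FPKM of 1 in all of them. Of all 16493 genes, 2633 were at 0 and 5560, these included, under 1 in every library. The lists were drawn up with earlier results of these data known. The surfactant genes Sftpa1, Sftpb and Sftpd of the lung, Umod of the kidney tubule, Csn2 of milk and Enam of enamel were among those listed at 0 throughout. Umod lies 3722 bases from Gp2. These names were chosen after their values were seen.

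**Figure D4:**
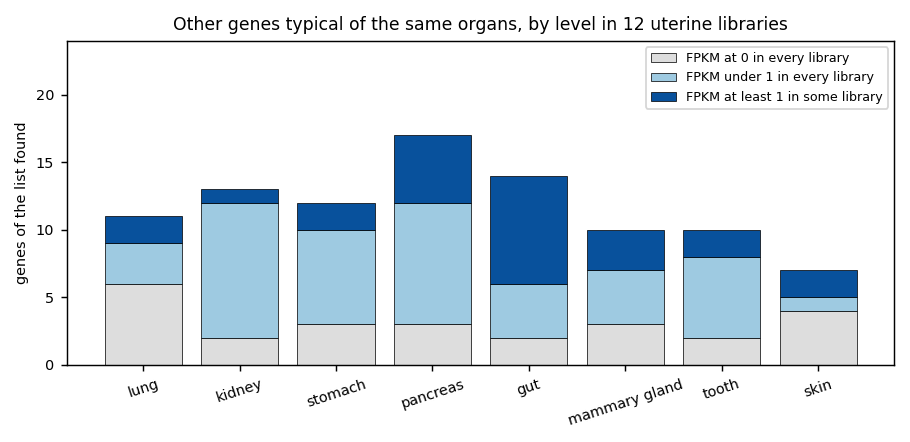
Number of genes found from each of 8 lists typical of an organ, members left out, stacked by their highest level in the 12 libraries. Of 94 genes, 69 stay under an FPKM of 1 in every library (5560 of all 16493 genes do), and the gut list has the most genes above that level.

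Of the organ genes, 19 could be tested. Those under 1 FPKM in all untreated libraries, as were Gkn1, Rbp2, Agr2, Mmp20 and Vil1, passed the filter through the E2 libraries alone. The counts of higher genes are therefore partly set by the filter. The lists were also drawn up with earlier results known, so no enrichment is read from these counts. In SPI-E2 against SPI 6 were higher and 1 lower, where 8.39% of all genes tested were higher and 1.86% lower, with a median difference of 0.26 against 0.11 over all genes. In CAS-E2 against CAS 6 were higher and 4 lower, where 7.99% and 6.37% of all were, with a median of 0.32 against -0.07. In each diet 4 of the 6 higher ones were of the gut and stomach lists, which held 6 and 2 of the 19 tested. The 4 lower calls in CAS-E2 against CAS became 1 without CAS 3 and 2 without CAS 1 or CAS-E2 2, and the 1 in SPI-E2 against SPI became 2 without CAS-E2 3, SPI 3 or SPI-E2 1.

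Fcgbp, a mucus protein of goblet cells that binds IgG, held 51.8, 139.6 and 136.8 FPKM in SPI-E2, against 2.32, 1.11 and 2.18 in SPI. It held 108, 121 and 151 FPKM in CAS-E2, against 3.62, 2.75 and 3.44 FPKM in CAS. Gkn1, a gastrokine secreted by the stomach surface, held 3.48, 9.19 and 5.49 FPKM in SPI-E2 and 0 in all 3 SPI libraries. It held 5.46, 6.30 and 6.73 FPKM in CAS-E2, against 0.267, 0 and 0 FPKM in CAS. Both rose past the test in both diets, Fcgbp by 5.16 in SPI-E2 against SPI and 4.89 in CAS-E2 against CAS, and Gkn1 by 2.74 and 2.72 in the same comparisons, all in log2(FPKM + 1). Rbp2, a retinol carrier of the gut lining, rose by 3.79 and 2.99 from libraries listed at 0 in both untreated groups, and Xdh, an enzyme that also coats milk fat droplets, by 1.21 and 1.18.

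Other calls were made in a single diet. Agr2, a goblet cell protein of the secretory pathway, and Fam83h, an enamel gene, passed in SPI-E2 against SPI alone. Mmp20, the enamel protease, and Vil1, a microvillus protein, passed in CAS-E2 against CAS alone. A miss in the other diet could be narrow. Mmp20 rose by 0.94 in SPI-E2 against SPI (adjusted p = 0.028, limma), short of the 2-fold cutoff, and Vil1 by 0.32. In CAS-E2 against CAS Agr2 rose by 1.79 (adjusted p = 0.061, limma) and Fam83h by 0.32. Lower in both diets was Lrp2, the endocytic receptor megalin of the kidney tubule, at -1.59 in SPI-E2 against SPI and -2.65 in CAS-E2 against CAS. Tff3, Cela1 and Ctrc were lower in CAS-E2 against CAS alone. In the interaction, which tests whether the E2 difference differed between diets, limma called 0 of the 10279 genes, against 133 higher and 37 lower with array weights and 84 higher and 7 lower without SPI-E2 1.

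Relatives of the members were called in 4 of 6 tested cases, all higher and in both diets. Of all genes tested, 8.39% were higher in SPI-E2 against SPI and 7.99% in CAS-E2 against CAS. The family lists were drawn up with earlier results of these data known, so no enrichment is read from the count. Only 22 of 31 family genes were found at all, and most of those were too low to test. Clca4 and Padi4 were under 1 FPKM in all untreated libraries, so they passed the filter through the E2 libraries alone. Clca4, next to Clca1 at 33920 bases, held 6.06, 35.0 and 53.4 FPKM in SPI-E2, against 0.0910, 0.181 and 0.50 in SPI. It held 22.9, 44.3 and 58.7 FPKM in CAS-E2, against 0.372, 0.105 and 0.0544 FPKM in CAS. Like Clca1 it was lowest among the treated libraries in SPI-E2 1. Reads of 36 bases can be shared between near copies of a gene, and how Cufflinks divided those of the Clca and Padi genes was not tested.

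The mean FPKM of Padi2 was 32.6 in SPI-E2 against 3.78 in SPI, and 41.0 in CAS-E2 against 4.30 in CAS. That of Padi4 was 3.69 in SPI-E2 against 0.499 in SPI, and 4.46 in CAS-E2 against 0.344 in CAS. Both make the same change to proteins as Padi1, and they flank it at 58636 and 57097 bases. The other family genes found near Padi1, Padi3 and Padi6, stayed under 0.1 FPKM. Dmbt1, a mucosal scavenger protein with the zona pellucida domain of Cuzd1 and Gp2, had a mean FPKM of 441 in SPI-E2 against 7.94 in SPI, and of 400.0 in CAS-E2 against 7.46 in CAS. Of the secretoglobins other than Scgb1a1, 5 were found and 0 could be tested.

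Within 250 kb of the members lay 68 genes, of which 29 were tested. In SPI-E2 against SPI 4 were higher, where 8.39% of all genes tested were, and 0 lower, namely Clca4, Padi2, Padi4 and Ankrd22, which lies 129630 bases from Lipf. In CAS-E2 against CAS 5 were higher and 0 lower (17.2%, where 7.99% of all genes tested were higher): Clca4, Padi2, Padi4, Sh3glb1 and Asrgl1. Sh3glb1, 153668 bases from Clca1, rose by 1.31 and Asrgl1, 26496 bases from Scgb1a1, by 1.04 in log2(FPKM + 1). Clca4 and Padi4 could be tested only through the E2 libraries. None of the neighbours of Kap, Gp2 or Csn3 was high enough to test. With a window of 100 kb 50% of 6 tested were higher in CAS-E2 against CAS, and with 500 kb 9.43% of 53. A gene counted only if its whole span lay inside the window. Padi2, whose near end lies 58636 bases from Padi1, was therefore left out at 100 kb.

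**Figure D5:**
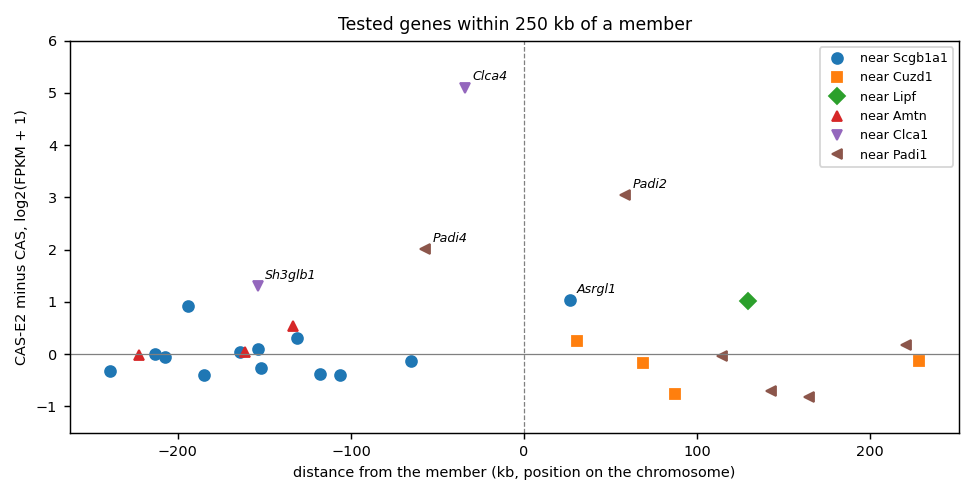
Difference in log2(FPKM + 1) between CAS-E2 and CAS for the 29 tested genes within 250 kb of a member, against their distance from it along the chromosome (in kb, lower positions to the left). The 5 labelled genes passed the test, and the paralogs Clca4, Padi2 and Padi4 stand highest.

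The genes whose pattern over the 12 libraries was most like that of a member were found by the root mean square difference of log2(FPKM + 1), each gene centred on its own mean. The members were chosen as high with E2, so such likeness largely follows from an E2 difference of similar size on this scale. Whether the genes share anything more was not tested. For Scgb1a1 the nearest genes were Mmp7, the protease matrilysin, at 0.48 and Lpo, the secreted lactoperoxidase, at 0.55. For Cuzd1 the same genes came first, Lpo at 0.32 and Mmp7 at 0.45, and for Kap they were Lpo at 0.67 and S100g, a calcium-binding protein, at 0.70. Mmp7 had a mean FPKM of 2690.0 in SPI-E2 against 13.6 in SPI, and of 2359 in CAS-E2 against 10.4 in CAS. Lipf had no close match, with Tmprss11b at 1.10 and Olfm4 at 1.12.

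The lower members had other partners. Clca1 was closest to Anxa8 at 0.40 and Elf3, an epithelial transcription factor, at 0.42. Gp2 was closest to Entpd8 at 0.28 and Tlr2 at 0.29, Csn3 to Usp43_predicted at 0.19 and Lgals9 at 0.21, and Amtn to Chst8 and Galr3, both at 0.29. Padi1 was close to Lpcat4, at 0.14. Among the members, Scgb1a1 and Cuzd1 differed by 0.40, Gp2 and Csn3 by 0.40, Csn3 and Padi1 by 0.42, and Gp2 and Amtn by 0.43. Because the measure uses log2(FPKM + 1), genes of low level look alike more easily. A low member can also lie near a more abundant gene with a smaller fold. Csn3 had a mean FPKM of 3.39 in SPI-E2 against 0.0587 in SPI, and Lgals9 57.3 against 11.5.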

How the data were processed

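Libraries of 36-bp single reads from 12 pools of rat uterine RNA were aligned by the authors with Bowtie2 2.1.0 within TopHat2 2.0.9, against the rn4 build, and abundances were estimated with Cufflinks 2.1.1. CASAVA 1.7 is also named in the submitters' processing notes. The deposited files hold an FPKM, with its interval and coverage, for each annotated transcript. The coverage and FPKM gave the mapped reads of each library, and the Cufflinks interval the reads behind a value, as the square of 2 times the FPKM over the interval's upper arm. Of 40 member values with under 25 implied reads, 31 lay within 0.05 of a whole number.

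FPKM were summed per gene symbol. For the 10279 genes kept, log2(FPKM + 1) was fitted over the 4 groups by limma 3.58.1 (R 4.3.3). A trend of the variance was allowed, and p-values were adjusted by Benjamini-Hochberg over all genes kept. The fit was tested on simulated data. The design assumed FPKM columns, but the values stand in a text attribute. The Cuffdiff test of the study, which needs reads, was not repeated. Python 3.11.15, pandas 2.3.3 and matplotlib 3.10.9 made the tables and plots.

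The 9 genes and all lists were chosen with earlier results of these data known. The genes named are the 9, for each the 2 of nearest pattern, up to 4 called genes of each organ, family and neighbour list, and the markers Epcam, Krt18, Foxa2, Esr1, Pgr, Adipoq and Alb. Some genes that the rule selects are left out of the text. Others were named after their values were seen. Alternatives were pseudocounts of 0.1 and 0.5, no filter, median-ratio scaling, the compared groups alone, array weights, no variance trend, a replicate block, other neighbour windows and leaving out each library.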

Additional observations from a re-analysis of the deposited data

How the results depend on the processing

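The depth limits the low members most: Gp2, Csn3 and Amtn rest on few reads even with E2, and their log2(FPKM + 1) differences move with the pseudocount. With 3 pools a group, the lane confounded with the group and SPI-E2 1 apart from its group, small diet differences cannot be seen. The E2 differences of the 9 genes kept their direction under every alternative run. The members were chosen as high with E2 and their treated and untreated libraries did not overlap, so this was fixed beforehand and is no support. A pseudocount of 0.1 raised the E2 difference of Gp2 to 4.81 (SPI-E2 against SPI) and 4.95 (CAS-E2 against CAS). Of all values of the 9 genes and their alternatives, 822 kept direction and side of the threshold, 16 moved, 1 passed the threshold and 52 changed sign, all of these last among diet differences and interactions that did not pass the test. The cause was not tested.

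The members called in SPI against CAS became 1 (Kap, 1.68) with array weights. Over all 10279 genes these weights gave 28 higher and 31 lower, against 0 and 2 without them. Organ genes lower in SPI-E2 against SPI became 3 with a pseudocount of 0.1, and 2 with a pseudocount of 0.5, median-ratio scaling, array weights or the replicate block, against 1. Neighbours higher in CAS-E2 against CAS were 50% of those tested within 100 kb and 9.43% within 500 kb, against 17.2%. The replicate block changed no other count by over 1.5 times. Libraries 1, 2 and 3 of SPI-E2 had correlations of 0.27, 0.12 and 0.34 with the library of equal number in CAS-E2. In the other pairs of groups such correlations ran from -0.26 to 0.15. Libraries of unequal number were not compared, so whether the numbers mark a pairing was not tested.

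Signs turned with array weights in SPI against CAS for Scgb1a1 (0.17), Cuzd1 (0.41), Clca1 (0.039) and Padi1 (-0.047), in SPI-E2 against CAS-E2 for Cuzd1 (0.26), Csn3 (0.24), Clca1 (0.11) and Amtn (-0.22), and in the interaction for Lipf (-0.41), Csn3 (0.15) and Clca1 (0.072). Median-ratio scaling turned Cuzd1 in SPI against CAS (0.066) and Amtn in SPI-E2 against CAS-E2 (-0.015), where pseudocounts of 0.1 and 0.5 gave -0.10 and -0.03. A pseudocount of 0.1 turned the interaction of Cuzd1 (0.014), Lipf (-0.46) and Gp2 (-0.15). Median-ratio scaling set the median of all genes at -0.01 in SPI against CAS, -0.01 in SPI-E2 against SPI and 0.01 in the interaction, against -0.16, 0.11 and 0.21 without it.

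Leaving out 1 library at a time gave 5 to 8 organ genes higher and 1 to 4 lower in CAS-E2 against CAS, and 4 to 7 higher and 1 to 2 lower in SPI-E2 against SPI. It turned the sign of these differences, each given from lowest to highest. In SPI against CAS the ranges were Scgb1a1 -0.73 to 0.12, Cuzd1 -0.59 to 0.43, Clca1 -0.065 to 0.041 and Padi1 -0.025 to 0.071. In SPI-E2 against CAS-E2 the ranges were Scgb1a1 -0.25 to 1.09, Kap -1.05 to 0.15, Cuzd1 -0.56 to 0.46, Lipf -0.49 to 1.645, Gp2 -0.28 to 0.435, Csn3 -0.645 to 0.32, Amtn -0.515 to 0.61, Clca1 -1.11 to 0.55 and Padi1 -0.001 to 0.90. In the E2 by diet interaction the ranges were Scgb1a1 -0.001 to 1.34, Cuzd1 -0.60 to 0.52, Lipf -0.855 to 1.28, Gp2 -0.31 to 0.40, Csn3 -0.72 to 0.24, Amtn -0.65 to 0.48, Clca1 -1.09 to 0.57 and Padi1 -0.019 to 0.89.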

Other observations

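Lrp2, the megalin receptor, was at 1.78, 0.135 and 0.172 FPKM in SPI-E2, against 5.16, 2.97 and 3.14 in SPI, and at 0.0542, 0.115 and 0.319 FPKM in CAS-E2, against 7.11, 6.21 and 5.56 FPKM in CAS. Neither pair of groups overlapped. SPI-E2 1 was the highest of the 6 E2 libraries for Lrp2, a gene that is low with E2.

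Tff3, a trefoil peptide of goblet cell mucus, was at 0, 0 and 1.29 FPKM in CAS-E2, against 2.94, 1.77 and 2.75 FPKM in CAS, while the goblet cell genes Clca1 and Fcgbp were high in the same CAS-E2 libraries. In soy-fed rats Tff3 was at 2.36, 0.90 and 0.636 FPKM in SPI-E2, against 1.15, 0.46 and 2.71 in SPI, and these ranges overlapped. Of the pancreatic enzymes, Cela1 was at 2.03, 3.10 and 0.973 FPKM in SPI-E2 against 2.64, 1.23 and 1.56 in SPI, and at 1.15, 0.916 and 0.74 FPKM in CAS-E2 against 2.92, 2.71 and 5.004 FPKM in CAS. Cpa1, another pancreatic enzyme chosen after its values were seen, was highest in SPI 1 at 10.03 FPKM, the library in which liver markers were also highest.

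Csn1s1 and Wap, milk genes named after their values were seen, were too low to test. Wap was listed at 0 in all 6 untreated libraries and reached 1.21 FPKM in SPI-E2 2 and 1.30 FPKM in CAS-E2 3, and Csn1s1, at 0 in the same untreated libraries, reached 1.23 FPKM in CAS-E2 3.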
